A study of Mus musculus with 8 samples.

Results

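The 10 genes described here encode enzymes that make or spend NADPH in redox reactions, and they were followed in primary mandibular fibrochondrocytes, the cells of the condylar cartilage of the jaw joint, from NG2/CSPG4 knockout (NG2ko) and wild type (WT) mice. The set was chosen for the 2 entries of Nnt, whose counts differed in opposite directions between the genotypes and which belong to a gene known to be broken in C57BL/6J mice. The other genes, Idh1, Idh2, Me1, Me3, G6pdx, Pgd, Gsr, Txnrd1 and Txnrd2, joined it by their enzyme activity. Rows of the processed table were taken by gene name, which gave 11 rows for the 10 genes out of 55401 rows, and all 11 were among the 17190 rows that passed the filter on low counts.

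The 4 NG2ko libraries came from pups with a germline deletion of Cspg4 in every tissue, made from a KOMP allele of C57BL/6N origin, converted by Cre to a reporter-tagged deletion and crossed for a few generations to C57BL/6J before a homozygous colony was kept. The 4 WT libraries came from C57BL/6J mice. Cells of both groups were taken from pups that the labels give as 10 to 14 days old and the sequencing methods as 14 days old. They were grown under the same growth conditions without loading and used at passage 4, and poly(A) RNA was sequenced in stranded paired-end libraries that the study calls biological replicates. Whether each replicate came from 1 pup or from several is not stated in the sources used here, so the p-values measure the spread between these cultures. The NG2ko libraries held 67197864 to 80300263 counts each, and the WT libraries 60317187 to 83668935.

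NADPH carries the electrons that cells use to reduce oxidized glutathione and thioredoxin and to build fatty acids and sterols. In the cytosol it is made by the oxidative arm of the pentose phosphate pathway (G6pdx, then Pgd), by Idh1 and by Me1. In mitochondria it is made by Idh2, by Me3 and by Nnt, a transhydrogenase of the inner membrane that uses the proton gradient to pass hydride from NADH to NADP. Gsr reduces glutathione with it, Txnrd1 reduces thioredoxin in the cytosol and Txnrd2 does so in mitochondria. C57BL/6J mice carry a deletion of several exons of Nnt and make no working enzyme, whereas C57BL/6N mice carry the intact gene.

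Both Nnt entries lie on the minus strand of chromosome 13 in GRCm38. ENSMUSG00000025453 runs from 119335448 to 119408997 and has 5 annotated transcripts, and ENSMUSG00000116207 runs from 119335528 to 119408952 and has 1. In the GENCODE annotation of that build, the first covers 7037 exonic bases and the second 3339, and all 3339 are shared, so the second entry has 0 exonic bases of its own. Its transcript ENSMUST00000223268 is contained whole in ENSMUST00000099149 of the first entry, which starts 45 bases earlier and ends 80 bases later, and both have 17 exons and 2505 coding bases. The joins below, all within coding sequence and read 5′ to 3′ on the transcript, are shown because they carry that identity. The last 30 bases of an exon are in lower case and the first 30 of the next one are in capitals.

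exon 7 to exon 8, ENSMUST00000223268: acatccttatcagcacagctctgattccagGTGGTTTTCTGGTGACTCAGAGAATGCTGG
exon 7 to exon 8, ENSMUST00000099149: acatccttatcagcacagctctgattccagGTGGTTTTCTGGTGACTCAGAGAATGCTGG
exon 7 to exon 8, ENSMUST00000069902: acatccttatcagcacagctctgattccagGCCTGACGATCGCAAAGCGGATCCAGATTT
exon 9 to exon 10, ENSMUST00000223268: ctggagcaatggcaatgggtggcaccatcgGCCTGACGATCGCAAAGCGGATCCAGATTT

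The first pair is the same in both entries letter for letter. The third join belongs to a transcript of ENSMUSG00000025453 alone, with 15 exons, which goes from its exon 7 straight to the sequence that opens exon 10 of the other 2 transcripts. The table gives counts per entry and not per transcript or join, so how many reads crossed each join was not analysed here. The reference genome is itself of C57BL/6J, so exons missing from that substrain have no place in either entry and reads from them are not in these counts.

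ENSMUSG00000025453 had 6161, 3784, 6687 and 5133 counts in the NG2ko libraries, against 591, 206, 444 and 965 in the WT libraries. ENSMUSG00000116207 had 0 counts in each of the 4 NG2ko libraries, against 1677, 2549, 2056 and 1528 in the WT libraries. The groups did not overlap in either entry, and the entries differed in opposite directions. These are the values the set was chosen by, so they are given with no test.

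In CPM, counts scaled to the size of the library, ENSMUSG00000025453 averaged 72.1 ± 11.3 in NG2ko and 8.45 ± 5.33 in WT (SD, n = 4 each), a ratio of 8.52. ENSMUSG00000116207 averaged 28.1 ± 3.08 CPM in WT (SD, n = 4), with 7810 counts in the 4 WT libraries together. Against a floor of 3 counts in the 4 NG2ko libraries together, it was at least 2742-fold lower in NG2ko. That bound covers counting error only, and not how reads of the shared exons were divided. It rests on the values the set was chosen by.

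The division of Nnt counts between the entries also varied among WT cultures. In NG2ko, 0 of 3784 to 6687 Nnt counts per library fell to ENSMUSG00000116207, which allows a share of up to 0.0449% to 0.0793% by the floor of 3 counts, or 0.0551% to 0.0974% as exact 95% upper limits. In WT replicates 1 to 4, that entry took 73.9% (exact 95% interval 72.1 to 75.7), 92.5% (91.5 to 93.5), 82.2% (80.7 to 83.7) and 61.3% (59.3 to 63.2) of all Nnt counts. The limits and intervals cover counting error within a library only, and not how reads of the shared exons were divided. The values are again those the set was chosen by. The summed CPM of both entries varied less among the WT libraries (33.5 to 38.8) than either entry did (2.50 to 15.0 and 23.8 to 31.0).

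If each read was counted exactly once, which was not tested, the sum of both entries does not depend on how shared exons were divided. It was 76.5, 56.1, 82.4 and 73.2 CPM in the NG2ko libraries, against 38.2, 33.5, 35.7 and 38.8 CPM in the WT libraries. Every NG2ko library was above every WT library, and the means, 72.1 ± 11.3 in NG2ko and 36.5 ± 2.45 in WT (SD, n = 4 each), stood in a ratio of 1.97. NG2ko replicate 2 was the lowest of its group, and the ratio was 2.12 without it.

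In the authors' FPKM, which divides by a length for each entry, the picture was different. The FPKM of ENSMUSG00000025453 was 9.97, 7.26, 10.7 and 9.65 in NG2ko, against 1.26, 0.312, 0.813 and 1.88 in WT. That of ENSMUSG00000116207 was listed at 0 in the NG2ko libraries (written as 0.0001), against 7.55, 8.24, 7.95 and 6.30 in WT. Added together they came to 9.97, 7.26, 10.7 and 9.65 in NG2ko, against 8.81, 8.55, 8.76 and 8.18 in WT, and the groups overlapped. The ratio of the summed means was then 1.09 in place of 1.97.

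Each entry had its own length in the FPKM. The length that a count, its FPKM and the library total imply was 7040 bases for ENSMUSG00000025453 and 3331 bases for ENSMUSG00000116207, after scaling to 1912 genes of a single transcript. These are close to their exonic bases of 7037 and 3339, retained introns included, so a read assigned to the first entry counted for less FPKM than the same read assigned to the second. With 1 length for both entries the ratio is that of the summed CPM.

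**Figure D1:**
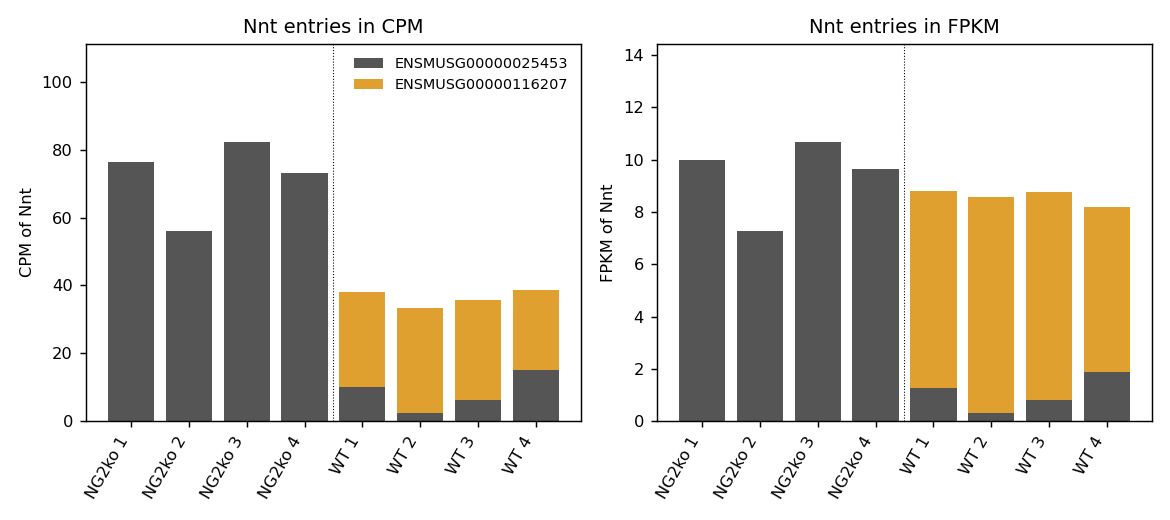
Stacked bars give the CPM (left) and the authors' FPKM (right) of the 2 Nnt entries in each of the 4 NG2ko and 4 WT libraries, with ENSMUSG00000025453 in grey and ENSMUSG00000116207 in orange. The orange entry is absent from the NG2ko bars, and the summed height separates the groups in CPM (56.1 to 82.4 against 33.5 to 38.8) and overlaps in FPKM (7.26 to 10.7 against 8.18 to 8.81).

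By Euclidean distance between centred log2 CPM (with 0.1 added) over the 8 libraries, among 13565 other rows with a mean of at least 1 CPM, the genes nearest to ENSMUSG00000025453 were Spi1, Ptprc and Stab1 (distances 1.26, 1.84 and 2.08). The first encodes a transcription factor of myeloid cells, the next a surface phosphatase of blood cells and the last a scavenger receptor of macrophages. Those nearest to ENSMUSG00000116207 were Xist, Gm16867 and Cspg4 (2.78, 4.97 and 5.08), and those nearest to the sum were Sox6, a chondrocyte transcription factor, Klf15 and Fxyd6 (0.43, 0.45 and 0.46). Any gene that differs by a like amount between the genotypes comes close on this measure. ENSMUSG00000116207 was at 0 in every NG2ko library, so its distances rest on the 0.1 CPM added.

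Cspg4 itself, the deleted gene, had 9.37 ± 2.85 CPM in NG2ko and 221 ± 17.2 CPM in WT (SD, n = 4 each). The 4 Y-linked genes Eif2s3y, Uty, Ddx3y and Kdm5d summed to 188 to 202 CPM in the NG2ko libraries and to 0 to 0.286 CPM in the WT libraries, and Xist had 0.197 to 3.30 CPM in NG2ko, against 102 to 210 CPM in WT. Sex, substrain and Cspg4 genotype therefore cannot be told apart in any comparison of the 2 groups, and in bulk RNA fewer cells of a type and less RNA per cell cannot be told apart either. Of 18 myeloid markers, 14 were higher in NG2ko and 0 lower (against 5.45% and 6.75% of all tested rows), with a sum of 363 to 426 CPM in NG2ko and 107 to 126 CPM in WT. Of 8 tested chondrocyte markers 6 were higher and 0 lower (sum 393 to 419 CPM in NG2ko and 261 to 293 CPM in WT), so cartilage genes were read in both groups, and fibrous layer markers summed to 50976 to 61177 CPM in NG2ko and 46458 to 56424 CPM in WT. Endothelial, muscle and erythroid markers summed to under 10 CPM in every library, with Matn1 of the cartilage list and Myod1 and Myh3 of the muscle list at 0 throughout.

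The 9 enzymes other than Nnt were tested by edgeR's quasi-likelihood fit of all 17190 rows, with Benjamini-Hochberg adjustment across those rows. At an adjusted p under 0.05, 12.2% of all rows were called, 5.45% higher in NG2ko and 6.75% lower. Of the 9 enzymes 4 were called, Idh2 higher and Pgd, G6pdx and Me1 lower, and the other 5 were not. These 4 were also the ones whose CPM did not overlap between the groups, which held for 19.9% of all rows. None of the 9 passed the thresholds used in the study (log2 fold change above 1 or below -1 with p below 0.05 before adjustment), which 3.21% of all rows did. Their median log2 fold change was 0.00, beside 0.02 over all rows tested.

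G6pdx, glucose-6-phosphate dehydrogenase, catalyses the entry step of the pentose phosphate pathway and is encoded on chromosome X from 74409483 to 74429194. It had 74.3, 70.3, 77.8 and 76.4 CPM in the NG2ko libraries, against 95.5, 89.5, 92.2 and 104.0 CPM in the WT libraries. It was lower in NG2ko, with no overlap, by 21.6% (log2 fold change -0.35, standard error 0.06, 95% interval -0.48 to -0.22, adjusted p = 0.00395, edgeR's quasi-likelihood test). As an X-linked gene it sits on the chromosome whose inactivation RNA, Xist, also separated the groups, and the part of that difference in this result was not tested.

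Pgd, 6-phosphogluconate dehydrogenase (chromosome 4, 149149991 to 149166707), makes the second NADPH of the pathway. It had 156.0, 142.9, 155.1 and 152.6 CPM in NG2ko, against 212.4, 181.1, 199.8 and 219.5 CPM in WT. Its level was 25.4% lower in NG2ko (log2 fold change -0.42, standard error 0.06, 95% interval -0.57 to -0.28, adjusted p = 0.00201, edgeR's quasi-likelihood test). The WT libraries spread more than the NG2ko libraries, with a coefficient of variation of 3.97% in NG2ko and 8.27% in WT.

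Me1, the cytosolic malic enzyme (chromosome 9, 86581371 to 86695953), turns malate into pyruvate and reduces NADP in doing so. It had 191.2, 188.7, 191.4 and 188.3 CPM in NG2ko, against 228.7, 215.2, 217.8 and 220.8 CPM in WT. Of the 9 enzymes it varied least within NG2ko, with a coefficient of variation of 0.845% there and 2.66% in WT. It was 13.9% lower in NG2ko (log2 fold change -0.22, standard error 0.04, 95% interval -0.31 to -0.13, adjusted p = 0.00681, edgeR's quasi-likelihood test).

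Idh1, the cytosolic isocitrate dehydrogenase (chromosome 1, 65158616 to 65186500), was the remaining cytosolic source. It had 149.0, 141.6, 151.5 and 156.4 CPM in NG2ko, against 172.9, 144.7, 159.7 and 164.2 CPM in WT, and the groups overlapped. Its log2 fold change of -0.10 (standard error 0.06, 95% interval -0.24 to 0.04) did not pass the test (adjusted p = 0.354, edgeR's quasi-likelihood test).

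In the mitochondrion the called enzyme was Idh2 (chromosome 7, 80094846 to 80115392), which makes NADPH from isocitrate in the matrix. It had 51.8, 48.4, 46.5 and 48.8 CPM in NG2ko, against 39.0, 30.6, 31.7 and 37.2 CPM in WT. The lowest NG2ko library was above the highest WT library, and Idh2 was 41.2% higher in NG2ko (log2 fold change 0.50, standard error 0.08, 95% interval 0.31 to 0.68, adjusted p = 0.00359, edgeR's quasi-likelihood test). Of the enzymes tested it was the only one called higher.

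Me3, the mitochondrial malic enzyme that uses NADP (chromosome 7, 89632392 to 89849152), was the least abundant, with 3.28, 3.53, 3.30 and 4.20 CPM in NG2ko, against 3.15, 2.68, 2.79 and 4.17 CPM in WT. The groups overlapped, and its interval was wide (log2 fold change 0.16, 95% interval -0.22 to 0.55, adjusted p = 0.63, edgeR's quasi-likelihood test). A change of the size seen for Idh2 lies within that interval and was not detectable for Me3.

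Among the enzymes that spend NADPH, Gsr, glutathione reductase (chromosome 8, 33652523 to 33698163), had 17.3, 16.2, 18.8 and 18.0 CPM in NG2ko, against 16.2, 16.5, 13.9 and 14.2 CPM in WT. NG2ko replicate 2 fell inside the WT range, and the log2 fold change of 0.21 (95% interval 0.02 to 0.40) did not pass after adjustment (adjusted p = 0.154, edgeR's quasi-likelihood test). Txnrd1, the cytosolic thioredoxin reductase (chromosome 10, 82833951 to 82897712), had 154.9 to 161.6 CPM in NG2ko and 154.9 to 162.3 CPM in WT. Its 95% interval for the log2 fold change, -0.09 to 0.10, was among the narrowest and leaves out differences of the size of Pgd, G6pdx, Me1 or Idh2. Txnrd2, the mitochondrial one (chromosome 16, 18426384 to 18479070), had 7.41, 7.42, 7.94 and 7.46 CPM in NG2ko, against 7.93, 7.65, 6.83 and 6.99 CPM in WT (log2 fold change 0.04, 95% interval -0.16 to 0.24, adjusted p = 0.839, edgeR's quasi-likelihood test).

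**Figure D2:**
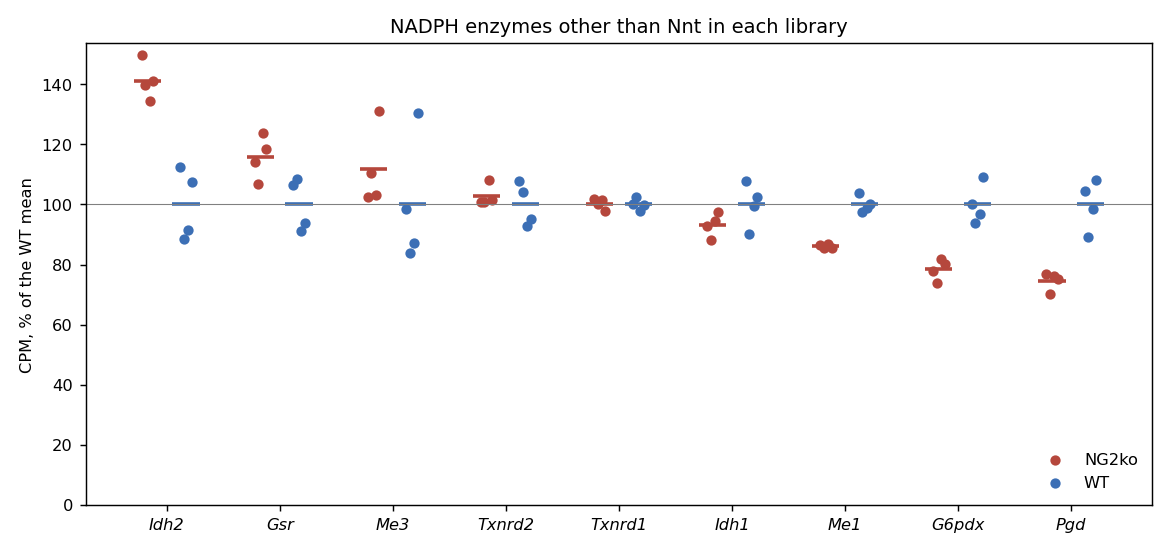
Points give the CPM of each enzyme other than Nnt in each library as a percentage of its WT mean, with NG2ko in red to the left of WT in blue and a short line at each group's mean (4 libraries each). Red and blue points separate for Idh2, Me1, G6pdx and Pgd and overlap for the other 5 enzymes.

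Set per length in FPKM, where the length is that of all annotated exons of a gene together, the order of the levels in NG2ko was Idh1 (49.5), Me1 (45.3), G6pdx (22.2), Pgd (21.6), Txnrd1 (20.6), Idh2 (17.3), Gsr (5.85), Txnrd2 (1.57) and Me3 (0.222). In WT the levels were 51.7 for Idh1, 51.2 for Me1, 27.6 for G6pdx, 28.1 for Pgd, 20.0 for Txnrd1, 11.9 for Idh2, 4.92 for Gsr, 1.48 for Txnrd2 and 0.193 for Me3, the same order on this scale but for G6pdx and Pgd. The order depends on the length used. Per kilobase of the longest transcript, Txnrd1 stood at 43.9 CPM in NG2ko and 43.8 CPM in WT, Pgd at 41.6 CPM in NG2ko and 55.8 CPM in WT, and G6pdx, below both, at 28.2 CPM in NG2ko and 35.9 CPM in WT. Idh1, Me1, Idh2, Gsr, Txnrd2 and Me3 kept their places. In FPKM, neighbours with overlapping libraries were Pgd and G6pdx in both groups and Idh1 and Me1 in WT, whereas in NG2ko every Idh1 library (46.5 to 52.3) was above every Me1 library (44.7 to 45.6). In NG2ko the Txnrd1 libraries (20.3 to 20.9) lay within the range of Pgd (20.2 to 22.2). Idh1 stood near the 95th percentile of all tested rows, at 94.9 in NG2ko and 95.01 in WT, and Me3 was the lowest, at 14.1 in NG2ko and 13.4 in WT. The FPKM of Me3 was divided by 14737 bases although its longest transcript has 4485. Per kilobase of the longest transcript it came to 0.797 CPM in NG2ko and 0.713 CPM in WT, still the lowest of the 9.

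The RNA of each mitochondrial enzyme was less abundant than that of its cytosolic counterpart. Idh2 stood at 37.2%, 36.6%, 32.8% and 33.4% of Idh1 by FPKM in the NG2ko libraries, against 24.1%, 22.6%, 21.3% and 24.2% in the WT libraries. The lowest NG2ko share was above the highest WT share. Per kilobase of the longest transcript, the mean share of Idh2 was 42.1% in NG2ko and 27.7% in WT. Txnrd2 was 7.62% ± 0.254 of Txnrd1 in NG2ko and 7.42% ± 0.442 in WT, and Me3 was 0.491% ± 0.0635 of Me1 in NG2ko and 0.377% ± 0.0773 in WT (SD, n = 4 each). The 2 malic enzymes thus differed the most in level, and their ratio rests on the length used for Me3.

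The pentose phosphate pathway was listed as 10 enzymes, all tested, of which 0 were called higher and 3 lower (against 5.45% and 6.75% of all tested rows), with a median log2 fold change of -0.21, beside 0.02 over all rows. The third was Tkt, transketolase of the non-oxidative arm, with 162.3, 171.2, 174.8 and 180.9 CPM in NG2ko, against 226.2, 190.3, 197.8 and 217.4 CPM in WT (log2 fold change -0.27, adjusted p = 0.0205, edgeR's quasi-likelihood test). Its call was lost, at adjusted p = 0.052 to 0.068, when NG2ko replicate 1, 2 or 3 or WT replicate 1 was left out, and in FPKM (0.0548 and 0.0549). Without Pgd and G6pdx, the other 8 enzymes had a median of -0.08. Taldo1, which works beside transketolase, lay at a log2 fold change of -0.14 (adjusted p = 0.21), Shpk -0.31 (0.323) and Rbks, at under 0.6 CPM in every library, -0.45 (0.711), from the same test. Pgls, Rpe and Rpia lay at -0.02, 0.03 and 0.03, with adjusted p of 0.907, 0.858 and 0.906.

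H6pd, which runs the first oxidative steps inside the endoplasmic reticulum, was uneven within WT. It had 85.4, 92.2, 90.7 and 89.5 CPM in NG2ko, against 91.8, 95.8, 21.0 and 95.4 CPM in WT. WT replicate 3 alone was low, at 1472 counts beside 5448 to 7888 in the other WT libraries. Its log2 fold change was 0.24 (95% interval -0.84 to 1.31, adjusted p = 0.81, edgeR's quasi-likelihood test), and -0.08 without that library (adjusted p = 0.373).

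**Figure D3:**
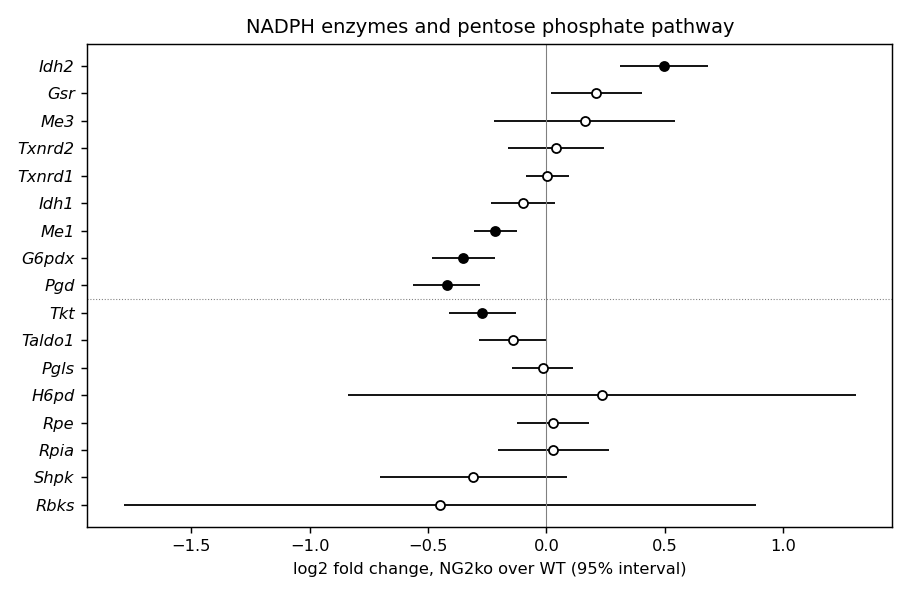
Points give the log2 fold change of NG2ko over WT for the 9 enzymes other than Nnt (above the dotted line) and the other pentose phosphate enzymes (below it), with bars for the 95% interval and filled points for an adjusted p under 0.05. Filled points are Idh2 at 0.50, Me1 at -0.22, G6pdx at -0.35, Pgd at -0.42 and Tkt at -0.27, and H6pd and Rbks have the widest bars.

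A list of 13 other genes held suppliers of NADP or NADPH and related enzymes, among them the NAD-linked Idh3a, Idh3b and Idh3g. Of these 13, 3 were higher in NG2ko and 0 lower (against 5.45% and 6.75% of all tested rows). These were the mitochondrial folate enzymes Aldh1l2 (349 ± 11.8 CPM in NG2ko and 218 ± 19.9 CPM in WT, adjusted p = 0.000134), Mthfd2 (142 ± 6.74 and 112 ± 4.68, adjusted p = 0.00209) and Mthfd1l (64.4 ± 1.99 and 50.9 ± 2.84, adjusted p = 0.00318), by edgeR's quasi-likelihood test (SD, n = 4 each). Aldh1l2 makes NADPH as it oxidizes formyl-folate, Mthfd2 reduces NAD or NADP and Mthfd1l makes formate. The median of the list was -0.04, so the 3 stood apart from most of it.

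The list of NRF2, KEAP1 and targets of NRF2, the factor that raises antioxidant genes under oxidative stress, held 20 genes outside the 10 enzymes. Of these 0 were higher and 10 lower (against 5.45% and 6.75% of all tested rows), and the median was -0.26. Among the genes of this list not called, only Slc7a11 (log2 fold change 0.26) and Osgin1 (0.04) lay above 0. None of the 10 enzymes entered these counts. Of those tested, Pgd, G6pdx and Me1 were lower, Idh2 was higher and the others were not called, among them Txnrd1 (0.004) and Gsr (0.21). Hmox1, heme oxygenase, had 644.4, 621.6, 642.0 and 639.2 CPM in NG2ko, against 1008.5, 944.1, 979.1 and 1047.2 CPM in WT (log2 fold change -0.64, adjusted p = 2.23e-05, edgeR's quasi-likelihood test). The heme transporter Slc48a1 (-0.36), the epoxide hydrolase Ephx1 (-0.29), the export pump Abcc1 (-0.25), sulfiredoxin Srxn1 (-0.43) and the quinone reductase Nqo1 (-0.47) were also lower. Nqo1 lost its call, at adjusted p = 0.0502 to 0.0579, without NG2ko replicate 3, WT replicate 1 or WT replicate 3. The number called lower was 5 without NG2ko replicate 3, 5 without WT replicate 1 and 6 without WT replicate 3. The list shares Tkt and Taldo1 with the pentose phosphate list and 3 genes with the glutathione list. It also shares 1 gene, Srxn1, with the thioredoxin list and 1, Blvrb, with the list of NADPH-using genes. Shared genes are counted in each list that holds them.

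Promoters of 8 of the 10 genes, 13 start sites in all, were found in the RefSeq table (GRCm38.p6), those of Nnt and Gsr not among them. The 250 bases before each start site were searched on both strands for the core of the antioxidant response element to which NRF2 binds, TGACNNNGC, and for a sterol regulatory element, TCACNCCAC. The first was found in 10.2% of 32851 promoters and in 2 of the 13, one each of Txnrd1 and G6pdx, and the second in 1.05% of all promoters and in 0 of the 13. Both matches are shown on the gene's strand with the core in capitals, which reads as its reverse complement, since one gene of the pair was lower in NG2ko and the other was not called.

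Txnrd1, chr10:82859104-82859132, plus strand: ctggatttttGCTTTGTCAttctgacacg
G6pdx, chrX:74428919-74428947, minus strand: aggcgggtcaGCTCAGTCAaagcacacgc

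The core begins 92 bases before the Txnrd1 start site used and 57 bases before that of G6pdx. A match to these letters is a description of the sequence only.

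Glutathione genes were 27, of which 4 were higher and 1 lower (against 5.45% and 6.75% of all tested rows), with a median of -0.05. Ggt5, a gamma-glutamyl transferase, was at 5.10 ± 0.564 CPM in NG2ko and 2.34 ± 0.394 CPM in WT (SD, n = 4 each; log2 fold change 1.13, adjusted p = 0.00124, edgeR's quasi-likelihood test). The calls of Gpx7, Gstm2 and Gstt1 (log2 fold changes 0.20, 0.22 and 0.53) and of Gclc, the catalytic subunit of the enzyme that starts glutathione synthesis (-0.25), were each lost in 6 or 7 of the 8 fits that left out 1 library. They held only without WT replicate 2 or 4 (Gclc and Gstt1), NG2ko replicate 2 or WT replicate 3 (Gpx7) and WT replicate 4 (Gstm2). Where lost, their adjusted p was at most 0.102, and the list's higher calls were 1 to 5 over the alternatives. In the thioredoxin list of 15 genes 1 was higher and 1 lower (against 5.45% and 6.75% of all tested rows). Prdx4, a peroxiredoxin of the endoplasmic reticulum that is also X-linked, was higher by the same test (0.25, adjusted p = 0.0189, and 0.0516 to 0.067 without NG2ko replicate 1, NG2ko replicate 4 or WT replicate 1). Srxn1 was lower (adjusted p = 0.0135, same test).

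Among 11 enzymes that make or remove reactive oxygen, 4 were higher and 2 lower (against 5.45% and 6.75% of all tested rows). Among the 4 were Cybb, Ncf1 and Rac2, parts of the phagocyte NADPH oxidase that turns NADPH and oxygen into superoxide, with log2 fold changes of 1.73, 2.27 and 2.41 at under 4 CPM in every NG2ko library. Ncf1 had 3.41, 3.43, 3.38 and 3.78 CPM in NG2ko, against 0.826, 0.826, 0.471 and 0.778 CPM in WT. The myeloid marker list moved the same way (sum 363 to 426 CPM in NG2ko and 107 to 126 CPM in WT, 14 of 18 higher, median log2 fold change 1.73), and its part in these values was not tested. The 2 lower genes were catalase (Cat), which breaks down hydrogen peroxide, at 84.9 ± 2.66 CPM in NG2ko and 115 ± 3.06 CPM in WT, and the extracellular superoxide dismutase Sod3, at 236 ± 6.37 CPM in NG2ko and 358 ± 23.8 CPM in WT (SD, n = 4 each; adjusted p = 0.000227 and 9.05e-05, edgeR's quasi-likelihood test).

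Genes of pathways that draw on NADPH were 21, of which 19 were tested, 2 higher and 7 lower (against 5.45% and 6.75% of all tested rows), with a median of -0.08. The sterol reductase Dhcr7 (50.8 ± 2.33 CPM in NG2ko and 73.5 ± 5.12 CPM in WT), the squalene oxidase Sqle (117 ± 3.23 CPM in NG2ko and 153 ± 8.9 CPM in WT) and fatty acid synthase, Fasn (222 ± 13.8 CPM in NG2ko and 294 ± 27.5 CPM in WT), were lower (SD, n = 4 each), with log2 fold changes of -0.53, -0.38 and -0.41. Acly, which makes their acetyl-CoA and does not itself use NADPH, was lower as well (-0.44). Pycr1, a mitochondrial enzyme of proline synthesis, was higher, at 58.5 ± 3.25 CPM in NG2ko and 46.5 ± 2.78 CPM in WT (adjusted p = 0.00694, edgeR's quasi-likelihood test). Of 10 mitochondrial carriers 0 were higher and 1 lower (against 5.45% and 6.75% of all tested rows). The lower one was the citrate carrier Slc25a1 (-0.38, adjusted p = 0.0338, edgeR's quasi-likelihood test), a call lost at adjusted p of up to 0.0838 without any 1 of the NG2ko libraries or WT replicate 4.

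**Figure D4:**
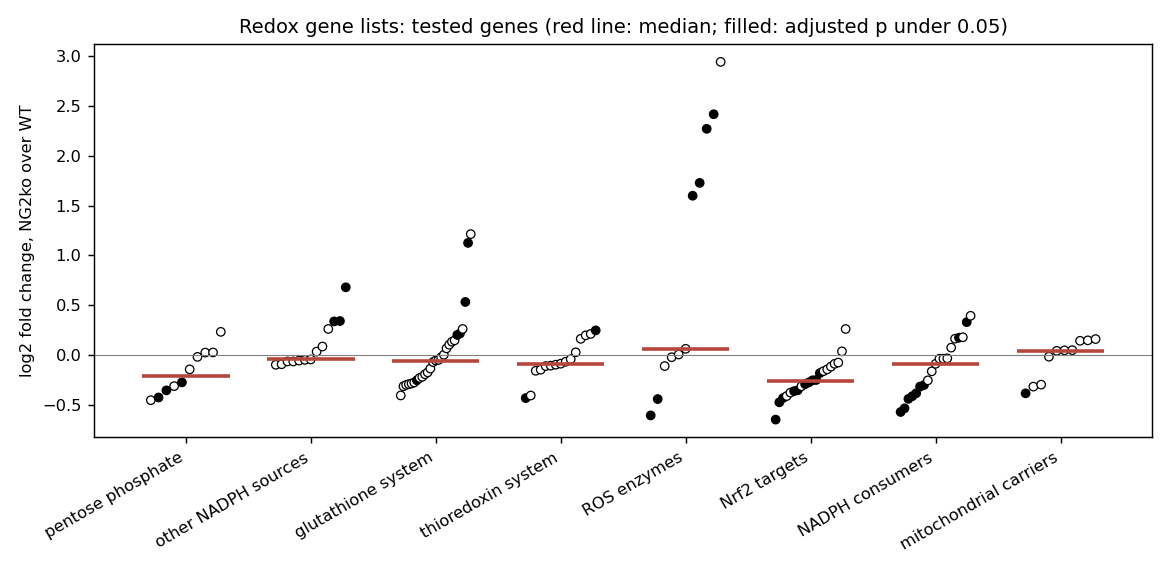
Each point is the log2 fold change of NG2ko over WT of 1 tested gene in 8 redox lists, filled where the adjusted p was under 0.05, with a red line at the list's median. The NRF2 targets lie mostly below 0 (median -0.26), and the filled points above 1.5 among the enzymes of reactive oxygen include Cybb, Ncf1 and Rac2 of the phagocyte oxidase.

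Other genes known to differ between the C57BL/6J and C57BL/6N substrains were read for comparison. Wdfy1, an endosomal adaptor, had 127.7, 124.0, 52.4 and 122.6 CPM in NG2ko, against 29.4, 26.5, 30.9 and 23.2 CPM in WT (log2 fold change 1.96, adjusted p = 0.00557, edgeR's quasi-likelihood test), with NG2ko replicate 3 well below the rest of its group. Entpd4 was lower at 22.4 ± 0.701 CPM in NG2ko and 39.0 ± 1.25 CPM in WT, and its near-identical copy Entpd4b at 31.7 ± 2.03 CPM in NG2ko and 48.1 ± 3.17 CPM in WT (SD, n = 4 each), 2 genes between which reads may be divided arbitrarily. Ide (log2 fold change 0.08) and Cyfip2 (0.38) were not called, and Crb1 and Nlrp12 were too low to test. A difference between substrains may lie in the coding sequence and need not alter the RNA level, and no direction was set beforehand. What the called and uncalled genes mean for the substrain was not tested. The list was drawn up with earlier results of these data known.

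Within 2 Mb of Nnt on either side, 61 other rows were in the table and 22 were tested. Of these 4 were called, which is 18.2% beside 12.2% of all rows. The share depends on the window, with 4 of 20 tested rows called within 1 Mb (20%) and 4 of 33 within 5 Mb (12.1%). Fgf10, a growth factor whose end lies 546.1 kb from that of Nnt, had 12.63, 11.98, 12.88 and 15.53 CPM in NG2ko, against 3.77, 3.86, 3.71 and 3.55 CPM in WT (log2 fold change 1.83, adjusted p = 6.47e-06, edgeR's quasi-likelihood test). Gm16263, which lies within the span of Fgf10, had 13, 12, 26 and 19 counts in NG2ko and 0 in every WT library. Mrps30, a mitochondrial ribosomal protein, was at 34.4 ± 1.25 CPM in NG2ko and 29.7 ± 1.29 CPM in WT (adjusted p = 0.0441), and Hmgcs1, an enzyme of cholesterol synthesis, at 200 ± 32.8 CPM in NG2ko and 269 ± 11.1 CPM in WT (SD, n = 4 each; adjusted p = 0.032, same test). With 1 library left out, the Mrps30 call held only without WT replicate 4 and that of Hmgcs1 only without NG2ko replicate 1, 3 or 4 (adjusted p of up to 0.11 and 0.0829 where lost), and 2 to 3 of the 22 rows were called. Paip1, the nearest tested gene, whose end lies 19.6 kb from that of Nnt, had a log2 fold change of 0.05, and Tmem267, Ccl28, Nim1k and Zfp131 (-0.18, 0.37, 0.09 and 0.19) were not called either.

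**Figure D5:**
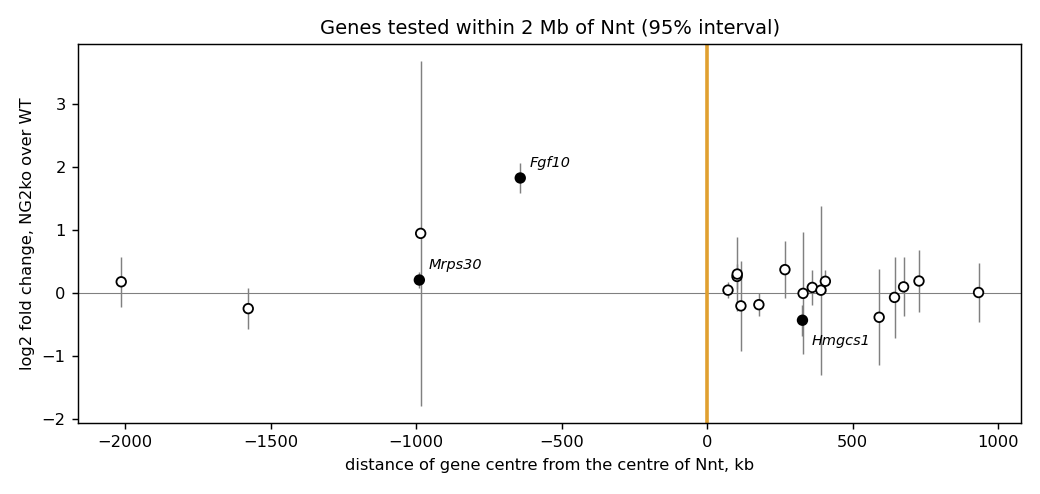
Points give the log2 fold change of NG2ko over WT, with the 95% interval, against the distance of each gene's centre from that of Nnt (orange line), in kb, for the tested rows within 2 Mb; Gm16263 is left out because its WT libraries were all at 0. Filled points, with an adjusted p under 0.05, are Fgf10 at 1.83, Mrps30 at 0.21 and Hmgcs1 at -0.43, and the open point nearest to the line is Paip1.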

How the data were processed

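RNA was measured in 4 NG2ko and 4 WT libraries, grouped by the sample labels. After trimming, the authors aligned reads by HISAT2 to Ensembl release 101 of the mouse, and assembled and quantified with StringTie and edgeR, per the labels and the methods. Versions, and the tool that counted, are not given in the sources used here. The deposited values are whole-number counts, not normalized, and FPKM computed by the authors, with 0 written as 0.0001. A gene's reads that fit several entries may have been divided between them.

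Counts were scaled by TMM, filtered by filterByExpr (minimum count 10) and tested in edgeR 4.0.16 (R 4.3.3) by its robust quasi-likelihood method, genotype being the sole term. Standard errors are the log2 fold change over the square root of F. The code was tested on simulated data. Figures used matplotlib 3.10.9. Alternatives were DESeq2 1.42.0, limma-voom (limma 3.58.1), upper-quartile scaling, other filters, FPKM with a pseudocount of 0.1 or 1, a replicate block, leaving out each library or chromosomes X and Y, adding the Nnt entries and other windows. The genes and lists were chosen with earlier results of these data known. By the rule for named genes, the text names every row of the 10 enzymes, all pentose phosphate and substrain genes, up to 6 called genes of each redox list by smallest p, named genes near Nnt, Cspg4 and the 3 nearest patterns. A few genes that the rule takes are not reported here. Cell type markers were read as lists. Parts of the functional annotation were not used here.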

Additional observations from a re-analysis of the deposited data

Results flagged for a closer look

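Among 96 groups of 4 libraries (NG2ko or WT values of 1 gene), 5 had a single library that lay apart by Dixon's test at the 95% level, and chance gives about 1 in 20. H6pd was 21.03 CPM in WT replicate 3, against 91.8 to 95.8 CPM in the other WT libraries. Ncf1 was 3.782 CPM in NG2ko replicate 4, against 3.38 to 3.43 CPM in the other NG2ko libraries, and 0.4714 CPM in WT replicate 3, against 0.778 to 0.826 CPM in the other WT libraries. Txnrd2 was 7.945 CPM in NG2ko replicate 3, against 7.41 to 7.46 CPM in the others of its group, and Gstm2 was 35.92 CPM in the same library, against 37.3 to 37.5 CPM. Without WT replicate 3 the log2 fold change of H6pd was -0.08, against 0.24 with it, and neither was called.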

How the results depend on the processing

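The 4 calls among the 9 enzymes kept their direction and an adjusted p under 0.05 in every alternative that tested them, with log2 fold changes of 0.44 to 0.56 for Idh2, -0.47 to -0.37 for Pgd, -0.38 to -0.30 for G6pdx (not tested without chromosomes X and Y) and -0.23 to -0.17 for Me1, and the other 5 stayed uncalled. The ratio of the summed Nnt entries was 1.972 with the entries added before the fit, 1.878 to 2.117 with a library left out and 1.095 in FPKM; the last differs by the length given to each entry. Uncalled genes near 0 changed sign. Txnrd1 was at -0.001124 by DESeq2 and at -0.01081 to 0.0165 with a library left out. Pgls was at 0.02469 and 0.02318 in FPKM with a pseudocount of 0.1 and 1, and at -0.05254 to 0.01599 with a library left out. Leaving out a library gave -0.08036 to 0.3669 for H6pd, -0.03951 to 0.0997 for Rpia and -0.02441 to 0.0584 for Rpe.

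At the study's thresholds 552 rows passed, 927 with no filter, 286 with the stricter filter (1 CPM in 4 libraries), and 313 and 75 in FPKM with a pseudocount of 0.1 and 1; the filters change which rows are tested, and the cause in FPKM was not tested. In FPKM, with either pseudocount, Tkt, Gclc, Slc25a1 and Hmgcs1 were not called (adjusted p = 0.0548 to 0.0733), and 6 NRF2 targets were lower. With a library left out, 613 to 900 rows were called higher, in place of 937. Called rows near Nnt numbered 4, and 2 to 3 with a library left out. Over the alternatives, calls of lists ran from 5 to 11 for lower NRF2 targets, 6 to 9 for lower NADPH-using genes, 1 to 2 for higher ones, 1 to 5 for higher glutathione genes, 0 to 4 for lower ones, 3 for higher genes of the list of NADPH sources and related enzymes and 2 to 3 for lower pentose phosphate genes.

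Replicate numbers did not pair the samples (correlations of 0.001, 0.0256, 0.0262 and 0.0441). With a replicate block, 1 row near Nnt was called, 792 rows in all were higher and 1023 lower, all 4 enzyme calls held, and Srxn1 and Wdfy1 were no longer called (adjusted p = 0.0699 and 0.06). Of the genes named in comparisons, Gclc, Gstm2, Gstt1, Mrps30, Hmgcs1 and Gm16263 also lost their calls there. Low counts limit Rbks and the oxidase genes, and shared exons limit each Nnt entry. Me3, at 187 to 294 counts in each library, varied widely among the WT libraries, with a coefficient of variation of 21.2%.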
